A study of Leymus chinensis with 14 samples.

Results

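Photoreceptors and the light-signalling proteins that act with them were followed across 14 leaf libraries of Leymus chinensis, or sheepgrass, a forage grass of dry steppe. A locus was taken as a member when the first Swiss-Prot name of any of its assembled transcripts held a phytochrome, cryptochrome, phototropin, UV-B receptor, FAR-RED or FAR1, COP1, COP9, SPA1, HY5, PIF, CONSTANS, B-box, root phototropism or DET1 term. That gave 185 of the 28593 plant loci in the table, and 153 of the 185 reached a value of 1 in at least 2 libraries and were tested. No member was named phytochrome B or root phototropism protein, and those genes were not analysed here. The libraries fall into 5 groups: low light with high salt (2 libraries), low light check (3), normal light with high salt (3), normal light with low salt (3) and normal light check (3), where check is the group labelled ck. All were leaves of plants aged 3 weeks, grown on Murashige-Skoog medium. The labels give no cultivar, light intensity, salt concentration or hour of harvest, and do not say whether replicates were separate plants, so p-values may measure technical spread alone.

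Plants read light through several receptor families. Phytochromes absorb red and far-red light, cryptochromes and phototropins absorb blue light, and UVR8 absorbs UV-B. Active phytochromes and cryptochromes hold back the COP1-SPA ubiquitin ligase, which otherwise marks light-promoting transcription factors such as HY5 and some B-box proteins for degradation; the COP9 signalosome and DET1 act beside COP1 in that repression. PIF transcription factors promote dark and shade growth and are destroyed when phytochrome is active. FHY3 and FAR1, relatives of mobile-element transposases, support phytochrome A signalling in Arabidopsis. CONSTANS-like proteins carry B-box zinc fingers and take part in flowering time and light responses.

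The names rest on protein similarity of uneven strength. The 4 phytochrome loci matched Swiss-Prot at 88.0% to 92.7% identity and the 4 phototropin loci at 78.4% to 94.7%. The 108 FAR1/FHY3-related loci had a median identity of 31.4%, and 98 of them were under 40%. In 32 of the 185 members, transcripts with the member name held under 50% of the abundance of the locus; these are named as mixed where they appear.

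Replicate libraries correlated at 0.846 to 0.953 across loci, lowest in the low light check group. The 100 most abundant loci took 23.5% to 26.6% of the total in low light check libraries and 40.1% to 47.1% in normal light check libraries. With the values as deposited, the median log2 change of all 20374 tested loci was 0.34 in low light against normal light check; after median-of-ratios scaling it was 0.02. Scaled values are therefore given beside the calls that differ between the scales.

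Low light was compared with normal light among check plants to find which light-signalling loci differ between these 2 groups. Of 153 tested members, 15 were higher and 6 lower by limma (Benjamini-Hochberg adjusted p under 0.05 over all loci), 13.7% of the members where 15.1% of all tested loci were called. The share called higher was 9.8% of members beside 10.8% of all loci, and the share called lower was 3.92% beside 4.33%, so the members were called about as often as any locus. In bulk leaves, fewer cells of a type and less RNA per cell cannot be told apart. The lower loci included 2 SPA genes, a COP1 gene and a UVR8-named gene, and the higher loci included phytochrome C, a phytochrome A, phototropin-1A and a cryptochrome. After median-of-ratios scaling the split was 7 higher and 13 lower, where 3.67% and 7.3% of all loci were called, and 13 of the 21 calls were made again in the same direction. Without the FAR1/FHY3-related loci and the DNA helicases that share only the letters PIF, 65 members were tested. Of those 65, 9 were called higher and 4 lower as deposited (13.8% and 6.15%), and 4 higher and 10 lower after scaling. The groups did not overlap for 40 members that were higher and 9 that were lower, where 25.9% and 8.31% of all tested loci were so placed. Leaving out normal light check replicate 3 left 4 higher and 2 lower, and leaving out normal light check replicate 1 left 4 and 4. Only 5 of the 21 calls were made whichever single library was left out: UVR8-named g25701, SPA1-RELATED 3 g26858, CONSTANS-LIKE 10 g20675, and the FAR1-RELATED SEQUENCE 5 loci g189 and g1420, the last a mixed locus.

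**Figure D1:**
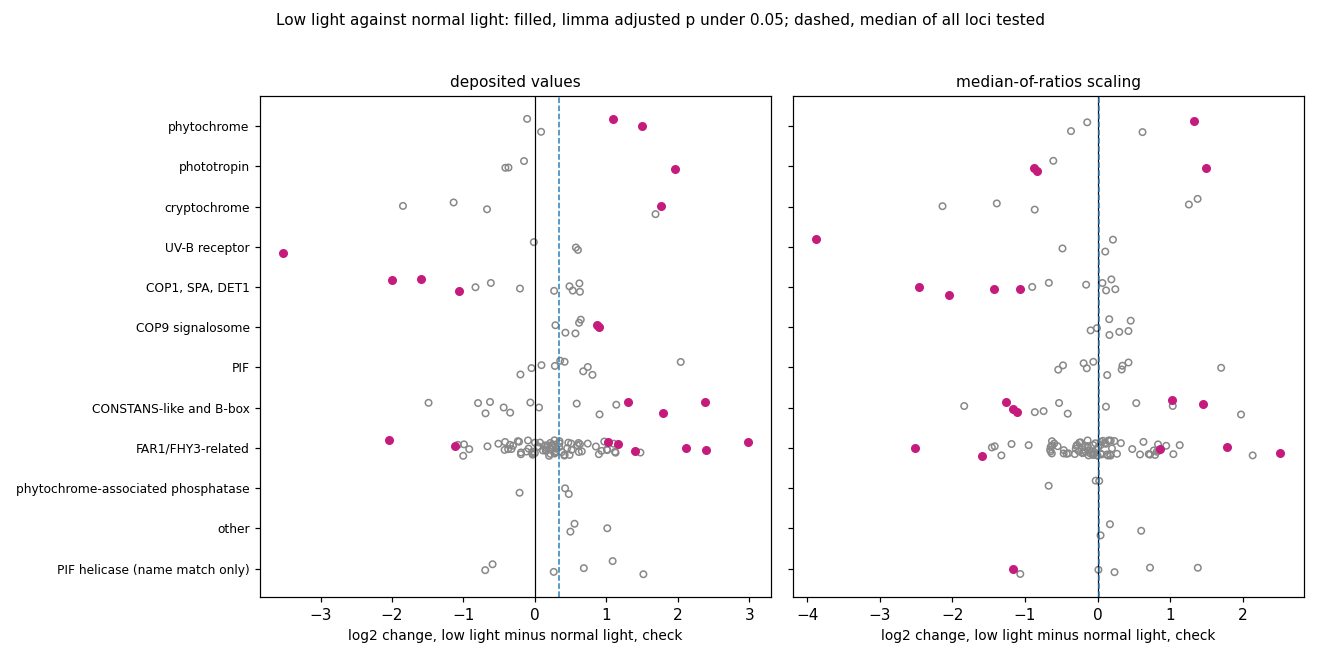
Log2 change on the log2(value + 1) scale, low light minus normal light, for each tested member by family (rows), with deposited values (left) and after median-of-ratios scaling (right). Filled points have limma adjusted p under 0.05, 15 higher and 6 lower on the left and 7 higher and 13 lower on the right; the dashed line is the median of all tested loci, 0.34 on the left and 0.02 on the right.

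Phytochrome C, one of the light-stable red and far-red receptors of grasses, was higher in low light. Phytochrome C (g9326) stood at 112, 41.2 and 66.3 in low light check libraries, against 28.4, 35.2 and 30.6 in normal light check libraries. Every low light library was above every normal light one, and low light check replicate 1 was the farthest out. The log2 change was 1.09 ± 0.30 (SE; limma adjusted p = 0.0334), and 0.62 after scaling (limma adjusted p = 0.148), so the call does not hold on that scale. Of 9 tested phytochrome C transcripts, 3 were called higher and none lower, where 11.5% and 4.49% of all tested transcripts were, and the log2 changes of all 9 ran from 0.84 to 1.05.

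Phytochrome A, the receptor that senses far-red and very weak light and is known to accumulate in darkness, was represented by 3 loci at low abundance. The phytochrome A type 3 locus g2314 had values of 5.71, 0.747 and 2.28 in low light check libraries, against 0.156, 0.421 and 0.0257 in normal light check libraries. All low light values lay above the normal light ones, though they spread over a wide range. Its log2 change was 1.5 ± 0.42 (SE; limma adjusted p = 0.0322) and stayed past the threshold after scaling (limma adjusted p = 0.0476). Phytochrome C and g2314 were each called in 10 of 14 fits that left out 1 library, and both calls were lost without check replicate 1 or 3 of either light level, with limma adjusted p up to 0.115 and 0.102. The other phytochrome A loci, g20682 and g97226, changed by 0.09 and -0.11 and were not called. Their values ran nearly in parallel across the 14 libraries, and whether the 2 loci share reads was not tested.

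Phototropins steer phototropism, chloroplast movement and stomatal opening in blue light. Phototropin-1A (g2054) read 193, 59.8 and 182 in low light check libraries, against 25.4, 40.6 and 32.6 in normal light check libraries. The groups did not overlap, with low light replicate 2 closest to the normal light range. The log2 change was 1.96 ± 0.47 (SE; limma adjusted p = 0.0185, and 0.0478 after scaling). The call was lost without check replicate 1 or 3 of either light level (limma adjusted p up to 0.0793), and with the member transcripts alone, which hold 71.8% of the locus (log2 change 1.46, limma adjusted p = 0.0583). None of the 3 phototropin-2 loci was called higher. Phototropin-2 g83515 read 51, 35.3 and 38.0 in low light check libraries, against 53.8, 49.1 and 62.4 in normal light check libraries, and these ranges overlapped. As deposited the log2 changes of g83515, g17130 and g23620 were -0.41, -0.37 and -0.15, none called; after scaling g83515 and g17130 were called lower at -0.88 and -0.83 (limma adjusted p = 0.017 and 0.0275).

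Cryptochromes repress COP1-SPA activity in blue light and control stem growth and flowering. The locus named Cryptochrome-1 (g17986) stood at 12.3, 4.48 and 34.4 in low light check libraries, against 2.14, 4.86 and 2.56 in normal light check libraries. The second low light library fell inside the normal light range. Its log2 change of 1.77 ± 0.55 (SE) only just passed (limma adjusted p = 0.049), was lost after scaling (limma adjusted p = 0.124) and was called in 2 of 14 fits with a library left out (limma adjusted p up to 0.161).

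The locus named Cryptochrome-2 (g19021) had 18.7, 11.5 and 45.2 in low light check libraries, against 5.06, 8.77 and 4.75 in normal light check libraries, with no overlap. Its log2 change of 1.69 ± 0.53 (SE) was just outside the threshold (limma adjusted p = 0.0511). In both cryptochromes low light check replicate 3 was the highest of all 14 libraries. The second protein database in the deposited table gives these loci the opposite numbers, cryptochrome 2 for g17986 and cryptochrome-1 for g19021, so which gene each one is was not settled. The 4 loci named cryptochrome DASH, which belong to a photolyase-like branch, were low; the 3 tested had log2 changes of -1.85 to -0.67, and limma called none.

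UVR8 is the UV-B receptor and has an RCC1-type propeller fold that proteins of other function share. The locus with 83.0% identity to UVR8, g24521, read 9.96, 5.63 and 3.97 in low light check libraries, against 2.65, 4.83 and 3.86 in normal light check libraries. These ranges overlapped, and its log2 change of 0.60 ± 0.33 (SE) was not called (limma adjusted p = 0.237).

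The largest log2 change of any tested member in this comparison was a fall, in another locus of that name. UVR8-named g25701 stood at 1.29, 0.791 and 0.559 in low light check libraries, against 22.4, 17.6 and 21.1 in normal light check libraries. The low light libraries were all far under the normal light ones. Its log2 change was -3.52 ± 0.37 (SE; limma adjusted p = 0.000823), with a limma adjusted p of at most 0.00743 in the 14 fits with a library left out, and all 9 tested transcripts of the locus were called lower. With 32.1% identity to UVR8, g25701 may be only a protein of the same fold, and the name is not a function here. The remaining UVR8-named loci g14126 and g25511, at 31.6% and 30.9% identity, had log2 changes of -0.02 and 0.57 and were not called.

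**Figure D2:**
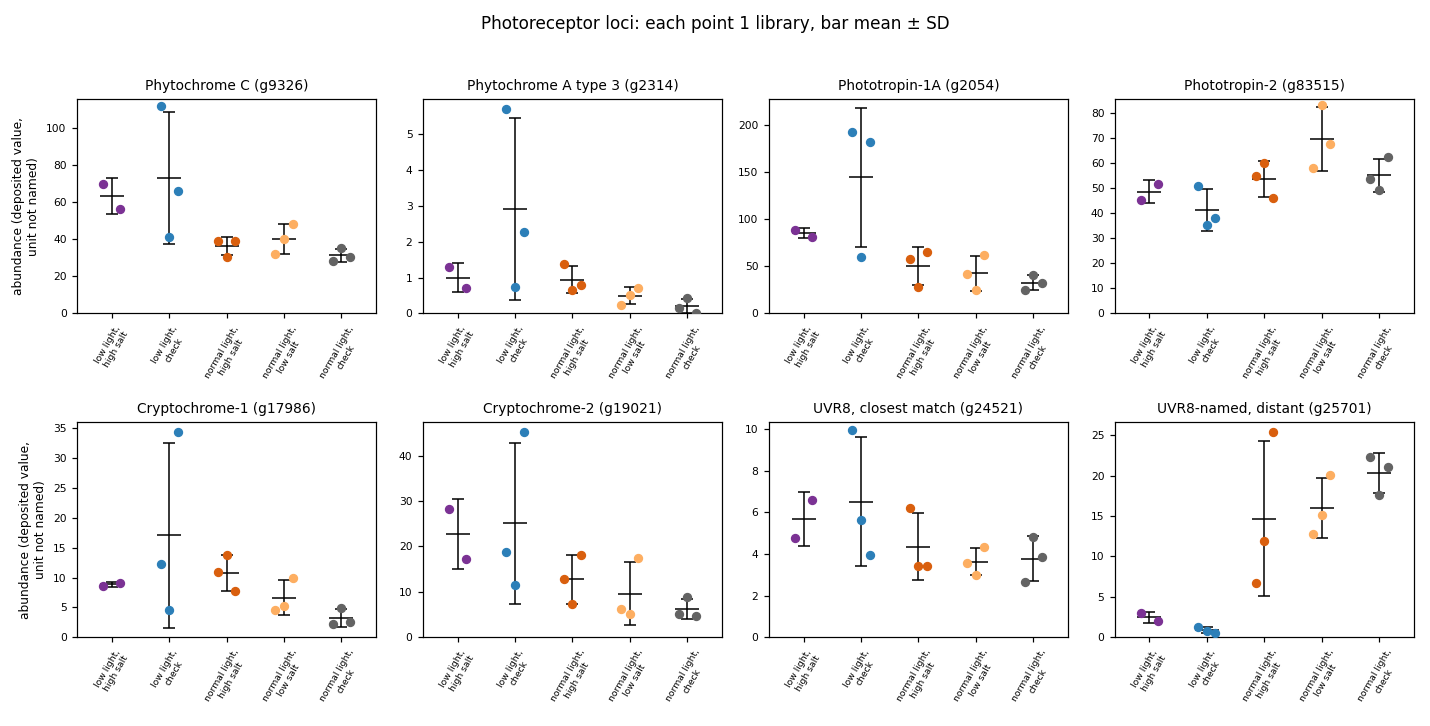
Deposited abundance (unit not named) of 8 loci with photoreceptor names in each library, with points for libraries and bars for the group mean ± SD, from low light with high salt on the left to normal light check on the right. Phytochrome C, phytochrome A, phototropin-1A and Cryptochrome-2 stand above the normal light check group in all low light check libraries. The distant UVR8-named g25701, which may be only a protein of the same fold, stays under 3 in both low light groups.

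COP1 and the SPA proteins form the ligase that represses light responses, and transcripts of 3 of the 11 loci of the COP1, SPA and DET1 group fell in low light, with none called higher, where 4.33% of all tested loci were called lower and 10.8% higher. SPA1-RELATED 3 (g26858) read 21.7, 12.8 and 10.1 in low light check libraries, against 47.6, 58.0 and 76.2 in normal light check libraries. No low light value came near the lowest normal light value. The log2 change was -2.0 ± 0.36 (SE; limma adjusted p = 0.00476, and 0.00172 after scaling).

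SPA1-RELATED 4 (g19031) read 31.9, 19.9 and 10 in low light check libraries, against 52.2, 60.6 and 62.1 in normal light check libraries. The groups were again apart, and the normal light values lay close together. The log2 change was -1.59 ± 0.37 (SE; limma adjusted p = 0.0163), and all 6 tested transcripts were called lower. This call was lost only without normal light check replicate 3, where the limma adjusted p was 0.0565.

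COP1, the catalytic subunit, had 2 loci. COP1 g9681, with 80.2% identity, had values of 2.82, 1.58 and 1.49 in low light check libraries, against 5.79, 4.90 and 4.58 in normal light check libraries, without overlap. It fell by 1.06 ± 0.26 on the log2 scale (SE; limma adjusted p = 0.0203), a call lost without low light check replicate 3 or without normal light check replicate 1 or 3 (limma adjusted p up to 0.0872). The more abundant COP1 g8712 read 22.4, 13.6 and 12.1 in low light check libraries, against 21.0, 24.7 and 27.6 in normal light check libraries. These overlapped through low light replicate 1; the log2 change of -0.62 was not called as deposited (limma adjusted p = 0.0729) and was -1.07 after scaling (limma adjusted p = 0.00756).

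The other loci of that group were not called. DET1, a repressor of light responses that joins a ligase of its own, had g83839 at a log2 change of 0.53 and g79920 at 0.62. The COP1 SUPPRESSOR 2 loci g2576 and g80322 were at 0.27 and 0.48. SPA1-RELATED 2 (g940), a mixed locus, was at -0.21.

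The COP9 signalosome removes the NEDD8 tag from cullin ligases. Its 7 loci all had positive log2 changes in low light, from 0.29 to 0.90, where 68.5% of all tested loci were positive; after scaling 5 of the 7 were positive. Subunit 1 locus g14184 read 14, 23.8 and 19.4 in low light check libraries, against 8.34, 11.2 and 9.30 in normal light check libraries, without overlap. It rose by 0.90 ± 0.25 on the log2 scale (SE; limma adjusted p = 0.0336). A further subunit 1 locus, g133645, had 12.2, 19.7 and 19.2 in low light check libraries, against 6.86, 8.09 and 11.8 in normal light check libraries, and its log2 change was 0.86 ± 0.27 (SE; limma adjusted p = 0.0491). Neither was called after scaling (limma adjusted p = 0.264 and 0.34). With 1 library left out, g14184 was called in 10 of 14 fits and g133645 in 4 of 14, with limma adjusted p up to 0.124 and 0.181. The most abundant subunit locus, subunit 8 (g27112), was at 0.62 and was not called (limma adjusted p = 0.0617).

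**Figure D3:**
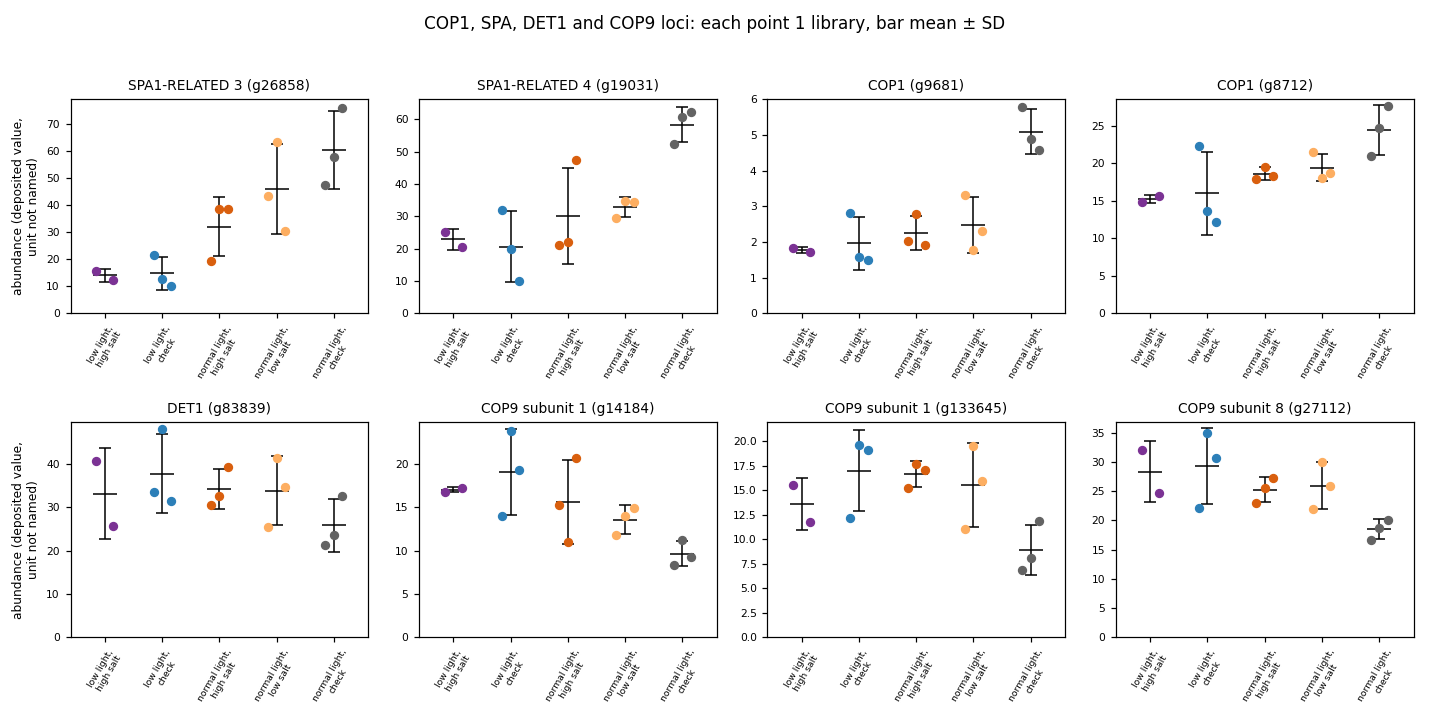
Deposited abundance (unit not named) of COP1, SPA1-RELATED, DET1 and COP9 signalosome loci in each library, with points for libraries and bars for the group mean ± SD, from low light with high salt on the left to normal light check on the right. Both SPA1-RELATED loci and COP1 g9681 are lower in every low light check library than in any normal light check library, and the subunit 1 loci of the signalosome are higher.

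PIF proteins were represented by 10 tested loci, mostly named after the rice PHYTOCHROME INTERACTING FACTOR-LIKE 13, and limma called none in low light; 2 had an unadjusted p under 0.05, where 31.7% of all loci did. The most abundant, g13911, read 65.5, 23.4 and 37.9 in low light check libraries, against 23.5, 21.1 and 20.9 in normal light check libraries. Low light replicate 2 lay inside the normal light range, and the log2 change of 0.80 ± 0.34 (SE) did not pass (limma adjusted p = 0.13). PHYTOCHROME INTERACTING FACTOR-LIKE 13 locus g145925 had a log2 change of 2.04 with an SE of 0.85. The single HY5 locus, g91466, the bZIP factor that COP1 targets, stayed under 1 in all 14 libraries and was not tested.

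Among the 14 CONSTANS-like and B-box loci, 3 were called higher in low light and none lower, where 10.8% and 4.33% of all tested loci were. After scaling 2 were called higher and 3 lower, where 3.67% and 7.3% of all loci were. CONSTANS-LIKE 10 locus g20675 had values of 10.1, 8.89 and 3.66 in low light check libraries, against 1.26, 1.29 and 1.39 in normal light check libraries. Every low light value exceeded every normal light value. The log2 change was 1.79 ± 0.38 (SE; limma adjusted p = 0.0108, and 0.0242 after scaling).

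A further CONSTANS-LIKE 10 locus, g99490, had 4.92, 4.17 and 2.02 in low light check libraries, against 0.836, 0.771 and 0.900 in normal light check libraries. Its log2 change was 1.3 ± 0.31 (SE; limma adjusted p = 0.0183), lost without check replicate 1 of either light level or normal light check replicate 3 (limma adjusted p up to 0.0641). Both loci had under 32% identity to their Swiss-Prot match, and 5 loci carry that name.

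B-box zinc finger protein 22, related to Arabidopsis activators of HY5-dependent genes, had 2 loci. The locus g90112 read 21.4, 11.8 and 26 in low light check libraries, against 4.55, 1.26 and 3.41 in normal light check libraries, without overlap. Its log2 change was 2.38 ± 0.61 (SE; limma adjusted p = 0.024), with a limma adjusted p of 0.0603 after scaling and of up to 0.0716 without low light check replicate 1 or 3 or normal light check replicate 2 or 3. All 3 tested transcripts of g90112 were called higher. The other locus, g14011, had a log2 change of 0.58 and was not called (limma adjusted p = 0.0757).

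A further 3 loci of this family were called lower after scaling alone. CONSTANS-LIKE 16 (g14261) read 232, 275 and 143 in low light check libraries, against 303, 358 and 355 in normal light check libraries. CONSTANS-LIKE 5 (g79586) read 147, 237 and 152 in low light check libraries, against 249, 220 and 360 in normal light check libraries. B-box zinc finger protein 25 (g20510) read 39.1, 39.1 and 21.6 in low light check libraries, against 46.6, 77.1 and 50.2 in normal light check libraries. The groups were apart for g14261 and g20510 and overlapped for g79586. None was called as deposited, at log2 changes of -0.69, -0.63 and -0.80, and each was called lower after scaling, at -1.17, -1.10 and -1.26 (limma adjusted p = 0.0402, 0.0158 and 0.00988).

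FAR1/FHY3-related loci made up 82 of the tested members; 6 were called higher and 2 lower in low light, where 10.8% and 4.33% of all tested loci were. The median log2 change was 0.24 beside 0.34 over all loci. After scaling 3 were called higher and 2 lower, and 5 of the 8 calls were made again. Counting only the 59 tested loci whose own transcripts hold at least 50% of the abundance, 4 were higher and none lower. FAR1-RELATED SEQUENCE 5 locus g189 read 16.9, 5.28 and 4.86 in low light check libraries, against 1.48, 0.967 and 0.682 in normal light check libraries. The groups were apart, and the log2 change was 2.11 ± 0.42 (SE; limma adjusted p = 0.00787). FAR1-RELATED SEQUENCE 5 locus g15334 read 27.6, 3.38 and 5.85 in low light check libraries, against 0.0825, 2.74 and 0.455 in normal light check libraries. Low light replicate 1 was far above the rest; the log2 change was 2.40 ± 0.70 (SE; limma adjusted p = 0.0385), with a limma adjusted p of 0.0649 after scaling and of up to 0.148 with a library left out. The remaining unmixed calls, g20513 and g21392, rose by 1.03 and 1.16; after scaling they had 0.63 and 0.86 (limma adjusted p = 0.095 and 0.0482).

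Of the 4 mixed FAR1/FHY3-related loci that were called, 2 kept the call and direction when only the transcripts with the member name were counted. FAR-RED ELONGATED HYPOCOTYL 3 locus g17154 had 44.4, 21.9 and 125 in low light check libraries, against 222, 180 and 229 in normal light check libraries, a log2 change of -2.05 (limma adjusted p = 0.0355). Its member transcripts alone read 3.52, 0.295 and 0.704 in low light check libraries, against 27.0, 35.3 and 23.9 in normal light check libraries, a log2 change of -3.77 (limma adjusted p = 0.00251). In g23631, named FAR-RED IMPAIRED RESPONSE 1, the log2 change was 1.40 for the whole locus and 1.87 for the member transcripts (limma adjusted p = 0.0421 and 0.00663), and 0.95 for the whole locus after scaling (limma adjusted p = 0.142). In g1420, most of whose abundance belongs to transcripts named CCG-binding protein 1, the whole locus rose by 2.98 (limma adjusted p = 0.00111), while its member transcripts had 0.99 (limma adjusted p = 0.465). In g16175, which includes transcripts named for the chloroplast protein EGY3, the whole locus fell by 1.11 (limma adjusted p = 0.0207), while its member transcripts had 0.79 (limma adjusted p = 0.231).

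**Figure D4:**
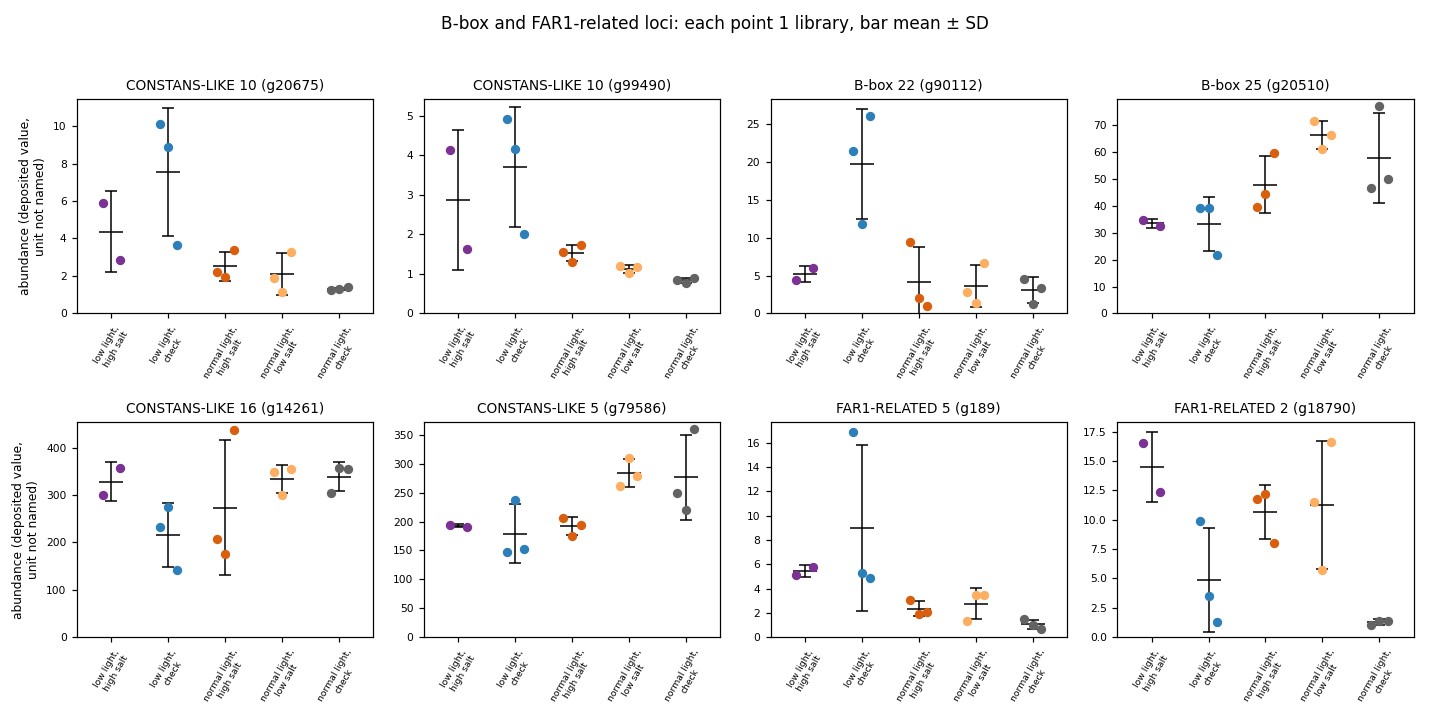
Deposited abundance (unit not named) of CONSTANS-like, B-box and FAR1-related loci in each library, with points for libraries and bars for the group mean ± SD, from low light with high salt on the left to normal light check on the right. CONSTANS-LIKE 10, B-box 22 and g189 are higher in every low light check library than in any normal light check library, and FAR1-RELATED SEQUENCE 2 g18790 has its lowest group mean in normal light check libraries.

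The smaller families were not called in low light. The 3 phytochrome-associated phosphatase loci, which remove phosphate from phytochromes, had log2 changes of -0.22 to 0.47. LONG AFTER FAR-RED 3 (g23696 and g18722) and PHYTOCHROME-DEPENDENT LATE-FLOWERING (g8752) had 0.50, 0.55 and 1.01. The 8 loci named after PIF1 and PIF6 DNA helicases share only letters with the PIF transcription factors; 6 were tested and none was called as deposited, while the mixed g2447 was called lower after scaling (limma adjusted p = 0.0268).

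Light was compared a second time among high-salt plants, in libraries that the check comparison does not use. Of the tested members, 2 were called higher and none lower by limma, where 0.584% of all loci were called, 0.52% higher and 0.0638% lower; 18 members had an unadjusted p under 0.05, where 9.71% of all loci did. The called members were g151844, which was at 0 in all 3 normal light high-salt libraries, and the mixed locus g1420. The first entered the test only through the low light high-salt group, the group where it is high, so its call carries little. No member was called when either low light high-salt library was left out, nor with a pseudocount of 0.1, a filter at 5 or the compared groups alone. Of the 15 members higher in low light among check plants, 12 had a positive change among high-salt plants, a share of 80%, where 79.8% of all loci called higher did so. All 6 lower members had a negative change, a share of 100%, where 79.2% of all loci called lower did so. The median log2 change of the 15 was 0.54 among high-salt plants and 1.5 among check plants, and that of the 6 was -0.68 and -1.79.

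UVR8-named g25701 read 2.93 and 2.00 in low light high-salt libraries, against 6.75, 11.9 and 25.4 in normal light high-salt libraries. The groups did not overlap, and the log2 change was -2.01 ± 0.42 (SE; limma adjusted p = 0.0667, and 0.0497 after scaling). SPA1-RELATED 3 (g26858) read 15.8 and 12.4 in low light high-salt libraries, against 19.4, 38.6 and 38.5 in normal light high-salt libraries, again without overlap. Its log2 change was -1.08 ± 0.40 (SE) and was not called (limma adjusted p = 0.383). Phytochrome C (g9326) read 70.2 and 56.6 in low light high-salt libraries, against 39.1, 30.6 and 39.3 in normal light high-salt libraries, a log2 change of 0.79 that was not called (limma adjusted p = 0.474). Phototropin-1A (g2054) had 0.83, with 88.8 and 81.3 in low light high-salt libraries, against 58.2, 27.8 and 65.5 in normal light high-salt libraries.

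**Figure D5:**
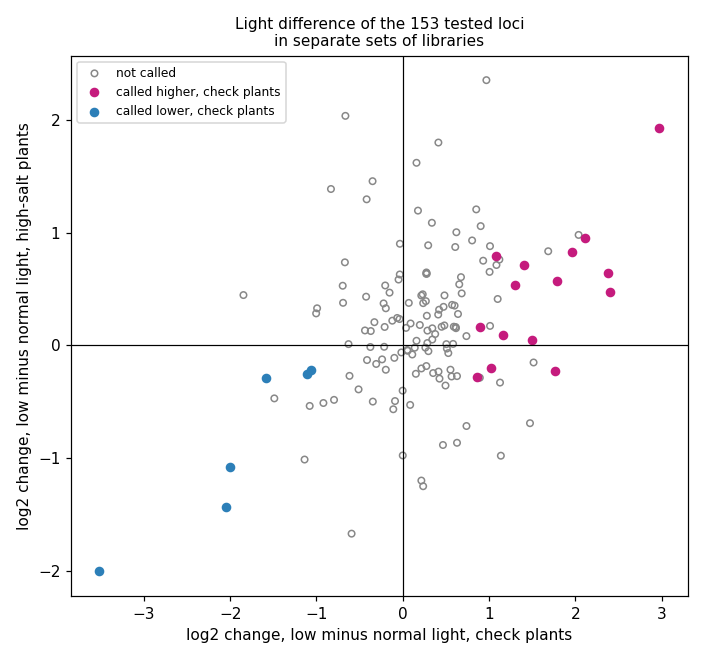
Log2 change with low light on the log2(value + 1) scale for 153 tested members among check plants (horizontal) and among high-salt plants (vertical), from libraries that are not shared. Filled points were called among check plants; 12 of 15 called higher lie above 0 on the vertical axis and 6 of 6 called lower lie under it.

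High salt was compared with check among normal light plants. Of the tested members, 1 was called higher and none lower by limma, where 4.01% of all loci were called, 3.03% higher and 0.982% lower; 24 members had an unadjusted p under 0.05, where 23.9% of all loci did. The called locus was FAR1-RELATED SEQUENCE 2 g18790, with 11.8, 12.2 and 8.04 in high salt libraries, against 0.997, 1.41 and 1.42 in normal light check libraries. All high salt values were several times the check values, and the log2 change was 2.35 ± 0.49 (SE; limma adjusted p = 0.0302). The call was lost when normal light check replicate 1 or 3 or high salt replicate 1 or 2 was omitted, with limma adjusted p up to 0.117. With low salt g18790 read 11.5, 5.70 and 16.6, a log2 change of 2.33 that did not pass (limma adjusted p = 0.114).

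Taken over the whole locus, salt changes in other members were smaller than in g18790 and did not pass the threshold as deposited. COP1 g9681 read 2.04, 2.79 and 1.92 in high salt libraries, against 5.79, 4.90 and 4.58 in check libraries, without overlap. Its log2 change was -0.91 ± 0.26 (SE; limma adjusted p = 0.0703), and it was called lower after scaling (limma adjusted p = 0.0368). The scaled fit also called the mixed loci g16175 and g2447 lower, so its split was 1 higher and 3 lower, where 0.788% and 2.11% of all loci were called. SPA1-RELATED 4 (g19031) had a log2 change of -1.02 and SPA1-RELATED 3 (g26858) one of -0.93 (limma adjusted p = 0.126 and 0.145). The 7 COP9 signalosome loci had positive changes in high salt too, from 0.12 to 0.86, where 69.3% of all loci were positive; after scaling 5 of the 7 were positive. Both salt and light comparisons use the same normal light check libraries, so these values are not independent of those above. High salt libraries were far apart in PHYTOCHROME INTERACTING FACTOR-LIKE 15 (g18956), with 16.8, 22.9 and 2.76 in high salt libraries, against 1.45, 2.20 and 1.69 in check libraries, and a log2 change of 2.08 that did not pass (limma adjusted p = 0.205). FAR1-RELATED SEQUENCE 5 g17509 had 1.83, and the mixed loci g2447, g207 and g17154 had -1.18, -1.15 and -1.11. Counting only the transcripts with the member name, g2447 had -1.43 and g207 had 0.50 (limma adjusted p = 0.201 and 0.816). On that count g17154 was called lower, at -2.65 (limma adjusted p = 0.0342).

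Low salt against check at normal light gave no limma call among the members, where 0.0883% of all loci were called. At an unadjusted p under 0.05 there were 9 members, where 12.1% of all loci were found. The log2 changes ran from -1.89, in the cryptochrome DASH locus g25709, to 2.33 in g18790.

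High salt against check among low light plants gave 2 calls, both higher, by limma, where 0.564% of all loci were called, 0.545% higher and 0.0196% lower; 10 members had an unadjusted p under 0.05, where 7.93% of all loci did. FAR1-RELATED SEQUENCE 5 g88735 read 5.15 and 1.87 in low light high-salt libraries, against 0.0351, 0 and 0 in low light check libraries. FAR1-RELATED SEQUENCE 5 g151844 read 1.83 and 2.33 in low light high-salt libraries, against 0, 0 and 0.393 in low light check libraries. Both entered the test only through the low light high-salt group, since no other group reached a value of 1, and a call for such loci says little more than that. No member was called when either low light high-salt library, or low light check replicate 1 or 2, was left out. No photoreceptor, COP1, SPA, COP9, PIF or B-box locus was called.

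Low light with high salt was also compared with normal light check. Of the tested members 6 were higher and 5 lower by limma, where 8.63% of all loci were called, 6.6% higher and 2.03% lower; 42 members had an unadjusted p under 0.05, where 27.4% of all loci did. After scaling 4 members were higher and 9 lower, where 2.41% and 4.35% of all loci were called. UVR8-named g25701 read 2.93 and 2.00 in low light high-salt libraries, against 22.4, 17.6 and 21.1 in normal light check libraries, a log2 change of -2.63 ± 0.42 (SE; limma adjusted p = 0.00448). SPA1-RELATED 3 (g26858) fell by 2.01 ± 0.40 on the log2 scale (SE; limma adjusted p = 0.0128) and COP1 g9681 by 1.13 ± 0.29 (SE; limma adjusted p = 0.0366). The other lower loci were the mixed g17154 and g16175. FAR1-RELATED SEQUENCE 2 g18790 rose by 2.76 ± 0.55 (SE; limma adjusted p = 0.0127), with 16.6 and 12.4 in low light high-salt libraries; the other higher loci were g189, g88735, g151844 and the mixed g1420 and g23631. Of these, g88735 and g151844 again entered the test only through the low light high-salt group. Counting only the transcripts with the member name, the mixed g17154 kept its call, at -4.12 (limma adjusted p = 0.00392). On that count g16175, g1420 and g23631 had -0.26, -0.30 and 0.94 and were not called (limma adjusted p = 0.768, 0.880 and 0.155). Leaving out low light high-salt replicate 1 removed all 11 calls, leaving out replicate 2 left 1, and without normal light check replicate 1 or 3 there were 4 and 6. Leaving out low light check replicate 1, which is in neither group, gave 20.

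The test of whether the salt change differed between light levels called no member by limma, where 0.206% of all loci were called. At an unadjusted p under 0.05 it found 16 members, where 14.5% of all loci were found. The locus with the smallest p was g151844, at a limma adjusted p of 0.111. It entered the test only through the low light high-salt group, the group where it is high, so its place carries little.

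Partners of the light pathway outside the member names were described from a list of clock, chromophore, ligase and shade-response genes. Of its 34 tested loci, 6 were called higher and 5 lower in low light among check plants, where 10.8% and 4.33% of all tested loci were. After scaling 2 were called higher and 6 lower, where 3.67% and 7.3% of all loci were. All 4 loci of GIGANTEA, a clock-linked flowering regulator, were called higher as deposited, at log2 changes of 1.14 to 1.58. After scaling g85206 and g98846 were still called, at 0.94 and 0.68, while g82379 and g136478 were not (limma adjusted p = 0.0634 and 0.0771). The most abundant GIGANTEA locus, g98846, read 38.0, 38.8 and 38.3 in low light check libraries, against 18.5, 15.7 and 16.6 in normal light check libraries. The morning-phased clock factor REVEILLE 2 (g1767) read 7.06, 2.44 and 0.843 in low light check libraries, against 77.4, 139 and 138 in normal light check libraries. The log2 change of g1767 was -4.96 ± 0.52 (SE; limma adjusted p = 0.000823), and REVEILLE 1 g19999 was at -3.38 ± 0.65 (SE; limma adjusted p = 0.00656). The REVEILLE 6 loci g98118 and g99491 were also called lower, both at -1.45 (limma adjusted p = 0.0315 and 0.0129, and 0.0149 and 0.00354 after scaling). The REVEILLE loci g16508, g26106 and g26667 were not called, at -0.97, -1.03 and -0.04. The response regulator PRR1 (g16290) was called higher at 1.75 (limma adjusted p = 0.0239), a call lost after scaling (limma adjusted p = 0.0853). The other PRR loci were not called. GIGANTEA g85206 and g98846 were also called higher in high salt than in check among normal light plants. Their log2 changes were 1.06 and 0.83 (limma adjusted p = 0.0442 and 0.0441), and neither salt call was made after scaling. The labels give no hour of harvest, and the part of clock phase in the members' values was not tested. Of 11 tested homeobox-leucine zipper loci, 1 was called higher and 1 lower in low light among check plants, and 0 and 1 after scaling. Homeobox-leucine zipper HOX6 (g27177) had a log2 change of 1.41 with low light (limma adjusted p = 0.0154), and of 0.95 after scaling (limma adjusted p = 0.057). With high salt at normal light the log2 change of g27177 was 1.5 (limma adjusted p = 0.0354), a call not made after scaling. The more abundant HOX16 locus g24465 was called lower with low light, at -0.66 (limma adjusted p = 0.0303). After scaling g24465 was at -1.13 (limma adjusted p = 0.00504). Leaf markers were present in all libraries, and the summed Rubisco small chain abundance was 12942 to 17247 in low light check libraries and 25336 to 37354 in normal light check libraries. Summed chlorophyll a-b binding protein abundance was 21957 to 29819 and 26787 to 46609 in the same groups, and those ranges overlapped. Loci with a fungal best hit, which were left out, summed to 336 to 1352 in low light check libraries and 179 to 237 in normal light check libraries. Their part in the members' values was not tested.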

How the data were processed

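RNA from 14 leaf libraries was sequenced by the authors. The authors deposited 1 table of abundance signal per assembled transcript and library. The file names no unit, and depth is unknown. Per the submitters' processing notes, Bowtie 0.12.2, HISAT2 2.0 and StringTie 1.3.0 were used, with no role stated. The notes also name a mouse genome build and the labels' protocols speak of rice leaves at extraction; the assembly behind the transcripts is not stated in any source used. The table ends at 65535 rows, the limit of its format, so loci beyond it were not analysed here. Broken lines (4) and 3 loci at those edges were left out, transcripts were summed to 29560 loci, and 967 loci with a fungal best hit were dropped. Summed abundance per library was 470103 to 581648.

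Values were tested as log2(value + 1), which understates the change of low loci, keeping loci that reached 1 in 2 or more libraries, with limma 3.58.1 in R 4.3.3 (5 group means over all 14 libraries, trend and robust settings, Benjamini-Hochberg over 20374 loci, threshold 0.05). The fit was tested on simulated data. The p-value threshold was applied to 7 comparisons, some of which share libraries. Loci were named by rule: the 2 most abundant tested members of each family, all calls of a comparison or the 5 at each end where more than 10 were called, and the 3 at each end, with a mean of at least 5, in the check light and high-salt comparisons; other loci named were chosen after their values were seen. The members and lists were chosen with earlier results of these data known. No sequence is held in the files, and none is shown.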

Additional observations from a re-analysis of the deposited data

How the results depend on the processing

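For low light against normal light among check plants, which called 21 members, the fit with only the compared groups called 7, and the 14 fits with a library left out called 6 to 23. For low light with high salt against normal light check (11 called), only the compared groups gave 20, and fits with a library left out gave 0 to 20. For high salt at normal light (1 called), median-of-ratios scaling gave 4, a filter at 5 gave 2, member transcripts alone (an alternative chosen after seeing the data) gave 2, and fits with a library left out gave 0 to 3. For high salt at low light (2 called), a pseudocount of 0.1, a filter at 5 and only the compared groups gave 0, and fits with a library left out gave 0 to 2. For light among high-salt plants (2 called), equal library totals gave 1, a pseudocount of 0.1, a filter at 5 and only the compared groups gave 0, member transcripts alone gave 1, and fits with a library left out gave 0 to 2. For the interaction (0 called), no filter gave 2 and fits with a library left out gave 0 to 1. Low salt had 0 calls under every alternative run. The cause of these differences was not tested.

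With member transcripts alone, 4 log2 changes of named loci turned in sign with a call in the main or the alternative fit. In low light these were g203 (2.38, with -0.12 for the whole locus) and g16175 (0.79). The others were g1420 in the light comparison among high-salt plants (-0.72) and in low light with high salt against normal light check (-0.30). Further named loci turned from negative to positive without a call in either fit. These were g24 (1.18) and g207 (1.53) in low light, and g203 (1.34) and g207 (0.50) in high salt at normal light. Among the values of named loci under all alternatives, 1929 kept their side of the threshold, 180 lost a call and 34 gained one. A further 4 were counted as reversed, having turned in sign with a call in the main or the alternative fit. Sign changes of values not called in either fit were not counted as reversed, so the 1929 did not all keep direction.

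Correlations of deviations from the group means ran from -0.169 to 0.145 for same-numbered libraries and from -0.226 to 0.226 for differently numbered ones. No pairing by replicate number was seen, though these ranges cannot exclude it. Deviations of the 2 low light high-salt libraries mirror each other by construction, so their correlations come with both signs. With the replicate number as a block, the calls were 19 for low light among check plants, 10 for low light with high salt against normal light check, 2 for high salt at normal light, and 0 for high salt at low light, for light among high-salt plants, for low salt and for the interaction.

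Limits: the low light high-salt group has 2 libraries, and no depth is known, so no counting error can be given.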

Other observations

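Low light check replicate 1 was the highest of its group in 82 of 151 tested members with unequal values, or 54.3%, where it was the highest in 38.8% of all tested loci. Among the 15 members called higher in low light it was the highest in 9, and normal light check replicate 1 was the lowest of its group in 11. At the level of transcripts, 26 of 349 tested member transcripts were called higher and 24 lower by limma in low light among check plants, where 11.5% and 4.49% of all tested transcripts were.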
